A study of Homo sapiens with 2 samples.

Results

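The mERG peaks described here are those whose centre lay at most 5 kb from a transcription start site (TSS), taken from the distance that the authors deposited for each peak. They were 1575 of the 18070 peaks of the list, or 8.72%. The numbers in the peak names run to 18276, above the 18070 rows, and any peaks behind the other numbers were not analysed here. Of the 1575 peaks, 472 lay upstream of the TSS (negative distance) and 1103 downstream (positive distance). A further 16484 peaks lay beyond 5 kb, and 11 peaks had no distance. The ChIP-seq was done in VCaP, an established line of prostate cancer cells in which TMPRSS2 is fused to ERG, with 1 library immunoprecipitated with an antibody to ERG methylated at a lysine (anti-mERG) and 1 control library. The control is named both input and anti-IgG in the sample labels, so its kind was not settled. Both libraries came from the same line in its regular medium, and no cells without ERG or without its methylation were compared here. Without replicates, no difference between peaks could be set against a replicate error, and the tests on peaks below describe this peak list only.

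ERG is a transcription factor of the ETS family, whose DNA-binding domain recognizes a GGAA core flanked by a few preferred bases. In prostate cancers with the fusion, ERG is driven by the androgen-responsive TMPRSS2 promoter, and the methylated form is a product of EZH2, the methyltransferase of the Polycomb repressive complex PRC2. Promoters are the stretch around a TSS where transcription factors and RNA polymerase assemble, and many human promoters lie in CpG islands, which are rich in C and G and keep their CpG dinucleotides. The first intron begins after the first exon and often holds regulatory elements.

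The score of a peak is the authors' MACS value, taken to be minus 10 times the log10 of its p-value, and it grows with the evidence for enrichment over the control. Read depth is unknown from the list, in which fold enrichment, q-values and summits are not given. Intervals are 95% intervals for counting error only (Wilson for shares, exact Poisson for counts and densities).

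Some of the strongest peaks near a TSS were shown by 30 bases of the hg19 genome around the GGAA closest to the peak centre. GGAA was used since it is the core that ETS factors read and it was present near most centres. The GGAA closest to the centre is in capitals, and the strand is the one that reads GGAA. The first 4 are among the 5 downstream peaks with the highest scores, MIR4515 and ERVFRD-1 are among the 5 such upstream peaks, and DYRK1A is the promoter peak with the highest score. Not printed are MIR30B (221.95) downstream, and ZFHX4-AS1 (135.05), DCAF13 (115.59) and RNF19A (108.17) upstream. The printed GGAA closest to its peak centre was at -3 bp (MIR4515), and the furthest at -105 bp (ANKRD17).

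CSNK2A1, chr20:520038-520067, minus strand: aagtgtgagacggGGAAtgcaggcagcctc
KANSL1, chr17:44265261-44265290, minus strand: taaaatagagtgcGGAAactgacttgacca
ANKRD17, chr4:74119604-74119633, minus strand: agcattcatttagGGAAagaagagaaggaa
AP2B1, chr17:33919024-33919053, plus strand: taattagctggttGGAAagatagcaaatga
MIR4515, chr15:83732571-83732600, minus strand: cattctcagcaagGGAAcgcattgttttcg
ERVFRD-1, chr6:11115188-11115217, minus strand: caggtttatctgaGGAAtgggttactttca
DYRK1A, chr21:38792721-38792750, plus strand: ctaagagaatgtgGGAAtcgatggtctatt

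None of these 7 holds the longer ETS core CCGGAAGT without mismatch in the printed stretch. The CSNK2A1 peak contained 38 GGAA matches on either strand over its 2808 bp, and the AP2B1 peak 10 over 1607 bp. Such a short word recurs often, so a match is a description and not a site.

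By the deposited distances few mERG peaks lay at a TSS, and their number grew with distance. On the upstream side 46 peaks were centred at 0 to 1 kb, 73 at 1 to 2 kb, 106 at 2 to 3 kb, 133 at 3 to 4 kb and 114 at 4 to 5 kb. On the downstream side the counts were 41, 106, 216, 352 and 388 over the same steps. The downstream count rose at every step, whereas the upstream count flattened after 3 kb. The downstream share accordingly went from 47.1% (36.98 to 57.5%) of the 87 peaks at 0 to 1 kb to 77.3% (73.4 to 80.7%) of the 502 peaks at 4 to 5 kb. It was 70.03% (67.7 to 72.2%) over all 1575 peaks and 75.9% (75.3 to 76.6%) beyond 5 kb. These values depend on the set of starts: with the nearest start of any GENCODE transcript, 7443 peaks lay within 5 kb and 52.4% of them were downstream. Only 24 of the 1575 peaks spanned the TSS itself, 22 of them with a centre within 1 kb. The limit of 5 kb did not mark a break in the list: the outermost peaks inside it all lay 4997 bp from the TSS, downstream at AGBL3, SH3GL1P1 and XKR7 with scores of 36.57, 33.45 and 34.02 and upstream at EOGT with 34.22, and the next peaks outside it, at DDX52, CTTN and CAND1, lay 5004, 5007 and 5010 bp downstream with scores of 39.18, 73.53 and 85.97.

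**Figure D1:**
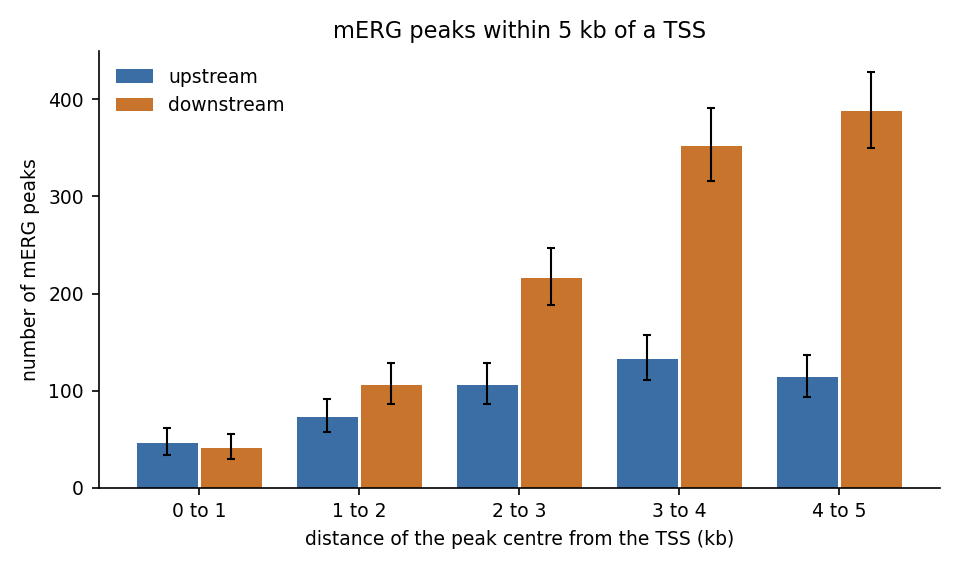
Number of mERG peaks (vertical axis) in each 1 kb step of distance from the TSS (horizontal axis, kb), upstream in blue and downstream in orange. Bars are counts from 1 ChIP library and error bars are exact 95% Poisson intervals. Both sides hold similar counts at 0 to 1 kb (46 and 41), and the downstream count reaches 388 at 4 to 5 kb.

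A count per step depends on how much sequence lies at that distance and on which genes a peak can be named for. The peaks were therefore also counted per Mb at set distances from the first start of each of 19516 protein-coding genes of GENCODE, using all peaks of the list whatever gene they were named for. Upstream sequence that belonged to another protein-coding gene was left out, and a peak in overlapping genes was counted for each. Inside genes, the density was 0.620 peak centres per Mb (0.320 to 1.08) in the first kb and 2.41 per Mb (1.76 to 3.22) in the next. It then climbed to 7.19 per Mb (6.01 to 8.54) at 2 to 3 kb, 16.02 per Mb (14.2 to 18.0) at 3 to 4 kb and 19.5 per Mb (17.5 to 21.7) at 4 to 5 kb. Beyond that point it levelled off, with 17.6 per Mb (16.7 to 18.6) at 5 to 10 kb and 19.1 per Mb (18.3 to 19.9) at 10 to 20 kb. Over all genes, gene bodies thus carried mERG peaks at a nearly even density from about 3 kb onwards, with a lower density over the start. Upstream of genes the density stayed low throughout, at 0.328 per Mb (0.106 to 0.765) in the nearest kb, between 1.18 and 2.80 per Mb in the steps from 1 to 5 kb, and 1.29 per Mb (1.03 to 1.61) at 5 to 10 kb. The intervals of the upstream and downstream densities at 4 to 5 kb, 1.22 to 2.78 and 17.5 to 21.7 per Mb, did not overlap. This contrast sets sequence outside protein-coding genes against sequence inside them, and 87.6% of the whole list was intronic. Side and gene content can therefore not be told apart here. The intervals also take counts as independent, although a peak in overlapping genes was counted for each.

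The density near the start was lowest at CpG-rich starts. A start was called CpG-rich where the 1001 bases around it had over 50% G and C and an observed to expected CpG ratio over 0.6, which held for 11243 of the 19516 genes. At these genes 0 peak centres fell in the kb downstream of the start (at most 0.329 per Mb) and 0 in the kb upstream (at most 0.432 per Mb), where sequence inside other genes was left out. By the deposited distances, 3 peaks lay within 1 kb of a CpG-rich TSS. That of TMEM106A was 741 bp upstream of a first start outside other protein-coding genes. That of CHD1L was 610 bp upstream of a start inside FMO5, which was not sorted into first or inner. That of NCOA4 was 666 bp upstream of an inner start. None of them entered the density in these steps. The same genes had the highest densities further in, with 10.5 per Mb (8.69 to 12.7) at 2 to 3 kb, 23.3 per Mb (20.4 to 26.4) at 3 to 4 kb and 28.3 per Mb (25.1 to 31.7) at 4 to 5 kb. The 8273 genes with other starts had 1.47 per Mb (0.761 to 2.57) in the first kb downstream and only 6.003 per Mb (4.29 to 8.17) at 4 to 5 kb, and they did not level off there, with 7.51 per Mb (6.55 to 8.56) at 5 to 10 kb and 9.93 per Mb at 20 to 50 kb. Base composition changed with the distance too: the first kb of all genes had 57.5% G and C, the step from 4 to 5 kb 44.98%, and the kb upstream 51.2%, while the mERG peaks within 5 kb had a median of 38.3% in the window of 100 bases to each side of their centre. The part of base composition in the depletion was not tested. The low density at the start was seen in long and in short genes, while the level reached further in differed. Genes of 100 kb or longer had 0.855 per Mb (0.176 to 2.50) in the first kb and 20.8 per Mb (16.3 to 26.2) at 4 to 5 kb, and genes under 20 kb had 0.856 per Mb (0.344 to 1.76) and 9.41 per Mb (7.07 to 12.3). At 5 to 10 kb the long genes had 21.8 per Mb (19.7 to 24.1). The short genes fell to 5.67 per Mb (4.70 to 6.77) there and had 6.17 per Mb (4.95 to 7.59) at 10 to 20 kb.

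**Figure D2:**
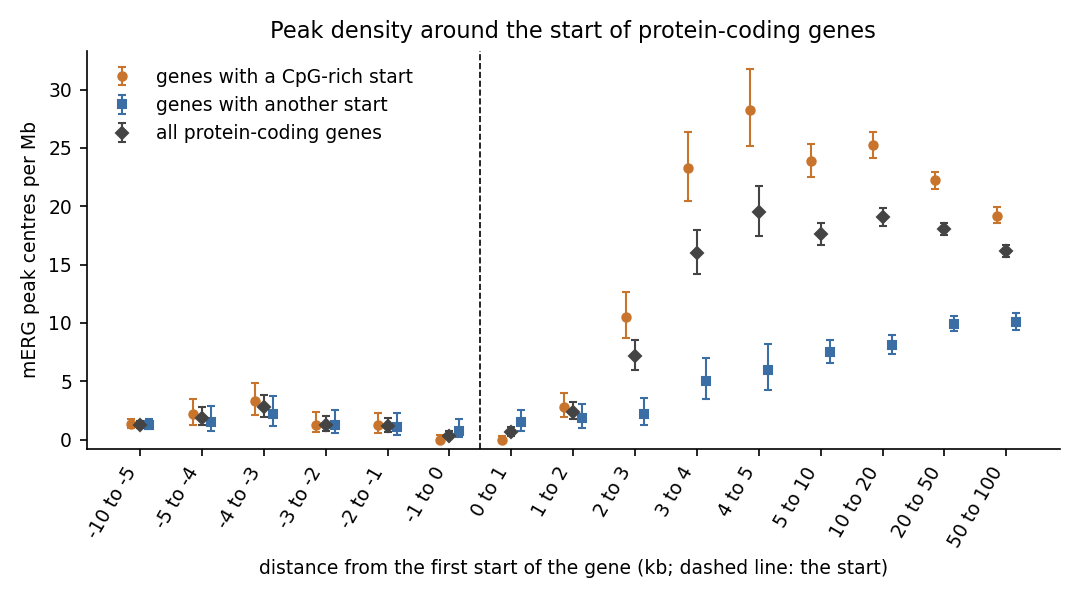
mERG peak centres per Mb (vertical axis) in steps of distance from the first start of protein-coding genes (horizontal axis, kb, negative upstream), for all genes (grey), genes with a CpG-rich start (orange) and genes with another start (blue). Error bars are exact 95% Poisson intervals. Over all genes the density is lowest in the steps that touch the start, where 0 peaks are counted for genes with a CpG-rich start, and it reaches 28.3 per Mb at 4 to 5 kb inside genes with a CpG-rich start.

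The peaks closest to a TSS mostly lay at starts inside genes. The TSS that each peak was named for was placed on GENCODE as the first start of its gene, as an inner start (over 1 kb inside its own gene), or inside another protein-coding gene. A TSS inside another protein-coding gene was placed in that class first, so first starts nested in other genes are not counted as first starts. Of the 87 peaks at 0 to 1 kb, 12 (13.8%, 8.07 to 22.6%) were at the first start of a gene, 37 (42.5%) at an inner start and 32 (36.8%) at a TSS inside another gene. The share at first starts then rose step by step, to 30.7% at 1 to 2 kb, 43.2% at 2 to 3 kb, 55.1% at 3 to 4 kb and 60.6% (56.2 to 64.7%) at 4 to 5 kb, against 58.8% (58.1 to 59.6%) beyond 5 kb. The upstream peaks differed from the downstream peaks in the same way, since 29.0% (25.1 to 33.3%) of the upstream and 58.0% (55.1 to 60.9%) of the downstream peaks belonged to a first start. Counted by distinct TSS, flanks rich in CpG were found at 3 of 74 TSS with a peak at 0 to 1 kb (4.05%, 1.39 to 11.3%) and at 355 of 470 with a peak at 4 to 5 kb (75.5%, 71.4 to 79.2%), against 67.6% (66.2 to 68.9%) of the TSS with a peak beyond 5 kb. Of first starts alone, the share was 1 of 11 (9.09%, 1.62 to 37.7%) at 0 to 1 kb and 259 of 295 (87.8%, 83.6 to 91.1%) at 4 to 5 kb. The same share was 82.0% (80.6 to 83.4%) for peaks beyond 5 kb. Over the first starts of all protein-coding genes, 57.6% (56.9 to 58.3%) had such flanks. That set is not the same, since 14.7% of its starts lie inside another gene and it holds no non-coding genes. GENCODE genes can begin further upstream than the RefSeq starts used by the authors, which moves starts into the inner class.

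The location classes followed the side. HOMER, the program that annotated the list, placed 1257 of the 1575 peaks in introns (79.8%, 77.8 to 81.7%), against 88.4% (87.9 to 88.9%) of the peaks beyond 5 kb. Downstream 91.0% (89.2 to 92.6%) of the peaks were intronic and 1.18% (0.690 to 2.01%) intergenic. Upstream 53.6% (49.1 to 58.1%) were intronic and 28.6% (24.7 to 32.8%) intergenic. Upstream introns often belonged to another gene: 146 of the 253 intronic upstream peaks (57.7%) were in an intron of another gene than the named gene, whereas 939 of the 1004 intronic downstream peaks (93.5%) were in the named gene. Intron 1 held 708 of the 1004 intronic downstream peaks (70.5%, 67.6 to 73.3%), as the distance favours, against 29.2% (28.5 to 30.0%) of the intronic peaks beyond 5 kb. Of the remaining members, 148 were intergenic, 50 promoter-TSS, 47 at a transcription termination site (TTS), 29 exonic, 21 in a 3' UTR, 16 in a non-coding RNA and 7 in a 5' UTR.

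Upstream peaks had lower scores than downstream peaks, while the comparison with the peaks beyond 5 kb depended on how genes with many peaks were counted. The median score was 40.86 within 5 kb and 40.87 beyond. Of the whole list, 50.0% of peaks scored above the list median of 40.865, against 787 of the 1575 peaks within 5 kb (49.97%), and the difference from the peaks beyond 5 kb was -0.0439 percentage points (-2.63 to 2.54 points, Fisher's exact test, adjusted p = 0.979). With 1 peak per gene, the closest to the TSS in each group, 46.9% of 1160 peaks within and 41.8% of 4664 beyond 5 kb were above the list median, a difference of 5.07 points (1.87 to 8.27 points, Fisher's exact test, adjusted p = 0.00272). The upstream median was 39.25 and the downstream median 41.54. Above the list median were 205 of the 472 upstream peaks (43.4%, 39.0 to 47.9%) and 582 of the 1103 downstream peaks (52.8%, 49.8 to 55.7%), a difference of -9.33 points (-14.6 to -3.95 points, upstream minus downstream, Fisher's exact test, two-sided, Benjamini-Hochberg adjusted over 4 tests, p = 0.00314). The shift was small beside the range, which ran from 33.02 to 135.05 upstream and from 33.02 to 340.46 downstream. It was no longer past the threshold with a higher division of the list, at its 75th percentile (-5.53 points, Fisher's exact test, adjusted p = 0.0860), or among intronic peaks alone (-7.14 points, adjusted p = 0.194).

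Among the larger classes of upstream peaks, the lowest shares above the list median were in intergenic sequence and in introns of the named gene. Among the 135 intergenic upstream peaks 37.04% (29.4 to 45.4%) were above the list median, and among the 106 upstream peaks in an intron of the named gene 34.9% (26.5 to 44.4%). The 146 upstream peaks in an intron of another gene reached 55.5% (47.4 to 63.3%), close to the 54.0% (50.8 to 57.2%) of the 939 downstream peaks in an intron of the named gene. Intergenic peaks beyond 5 kb were low as well, with 35.5% (32.9 to 38.3%) of 1213 above the list median.

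Median widths were close. The median was 405 bp within 5 kb, 400 bp upstream, 409 bp downstream and 399 bp beyond 5 kb. Over the list median of 400 bp were 49.8% of all peaks, 808 of the 1575 peaks within 5 kb (51.3%, 48.8 to 53.8%), 234 of the 472 upstream (49.6%) and 574 of the 1103 downstream (52.0%). The upstream minus downstream difference of -2.46 points (-7.83 to 2.91 points) and the difference of 1.62 points (-0.967 to 4.19 points) from the peaks beyond 5 kb did not pass the Fisher's exact test (adjusted p = 0.505 and 0.450). With 1 peak per gene, 46.98% of the peaks within and 34.2% of those beyond 5 kb were wide, and that difference of 12.8 points (9.59 to 15.9 points) passed Fisher's exact test (adjusted p = 7.23e-15). Score and width went together across the 1575 peaks (Pearson's r = 0.623, Spearman's rank correlation = 0.544), which share 1 library, whereas score and absolute distance did not (r = 0.0279, rank correlation = 0.0252).

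**Figure D3:**
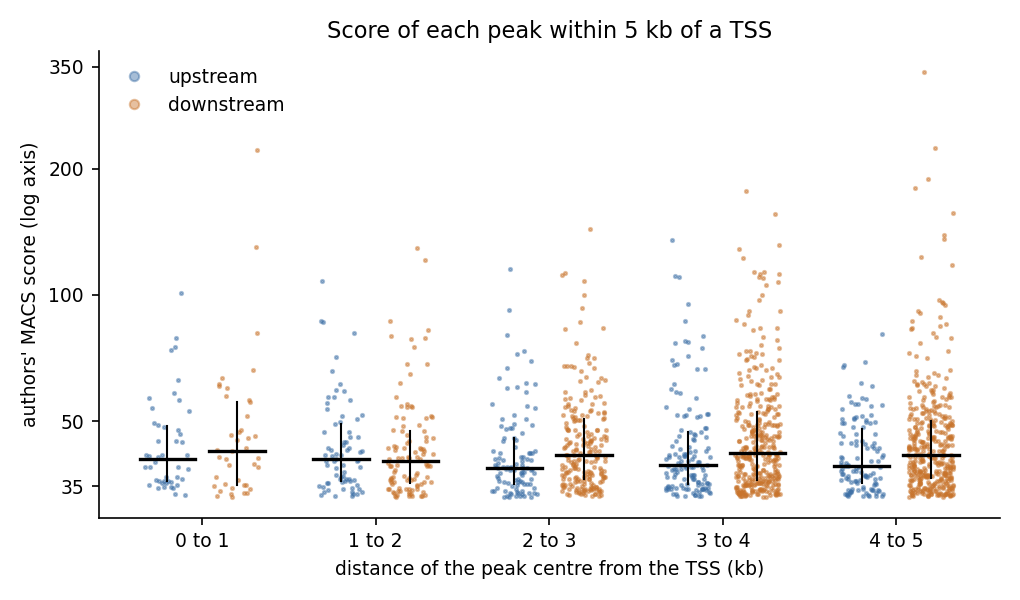
The authors' MACS score of each of the 1575 peaks (points, log axis) by 1 kb step of distance from the TSS (horizontal axis, kb), upstream in blue and downstream in orange. Horizontal bars are medians and vertical lines run from the lower to the upper quartile. Medians lie between 38.71 (upstream, 2 to 3 kb) and 42.45 (downstream, 0 to 1 kb), and the highest score, 340.46, is downstream at 4 to 5 kb.

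Most of the strongest downstream peaks were broad and lay in the first or second intron of the named gene. The peak with the highest score, 340.46, was 2808 bp wide and lay in intron 1 of CSNK2A1 (chr20:518641-521448), which encodes a catalytic subunit of casein kinase 2, 4438 bp downstream of the TSS. KANSL1, a scaffold of the NSL histone acetyltransferase complex, had a peak of score 223.92 in intron 2 (chr17:44264327-44266361), 4822 bp downstream of an inner start. ANKRD17, which encodes an ankyrin repeat protein, had one of 188.69 in intron 1 (chr4:74118296-74121148, 4780 bp), and AP2B1, a subunit of the AP-2 clathrin adaptor, one of 180.35 in intron 1 (chr17:33918212-33919818, 4733 bp). All 4 were centred 4 to 5 kb downstream. The third in rank was of another kind: the MIR30B peak (chr8:135810289-135813924, score 221.95, 3636 bp wide) covered the microRNA gene, and its centre lay 744 bp downstream of the TSS.

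In the steps closer to the TSS, the highest downstream scores were 177.19 at 3 to 4 kb in intron 2 of AATF, an anti-apoptotic factor gene, 143.44 at 2 to 3 kb in intron 1 of SYNRG, which encodes a clathrin adaptor partner, and 129.69 at 1 to 2 kb in intron 1 of ADAR, the adenosine-to-inosine RNA editing enzyme. The MIR30B peak led the step at 0 to 1 kb. The highest score of each step from 1 kb on thus came from a first or second intron, and that of the step at the TSS from a microRNA gene.

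The strongest upstream peaks all lay inside a gene. The highest score was 135.05, at ZFHX4-AS1 (chr8:77597999-77600449, 3714 bp upstream), inside intron 1 of ZFHX4, a homeobox gene on the other strand. The DCAF13 peak, 2554 bp upstream of the start of this ubiquitin ligase substrate receptor, had a score of 115.59 and lay in intron 1 of the neighbouring gene SLC25A32, a mitochondrial carrier. The peak upstream of MIR4515 (110.7, 3500 bp) lay in intron 1 of BTBD1. The peak 3088 bp upstream of ERVFRD-1, the gene of an endogenous retroviral envelope protein of the placenta, had a score of 110.31 and lay in the intron of SMIM13. The peak 1495 bp upstream of an inner start of RNF19A, a ubiquitin ligase gene, had a score of 108.17 and lay in intron 2 of RNF19A. At 4 to 5 kb upstream the highest score was only 80.7, at the pseudogene SH3GL1P2, and at 0 to 1 kb it was 100.86, at MIR32.

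The 5 widest peaks were at ARHGEF7-AS1 (4950 bp), ATL3 (4227 bp), NBPF1 (4085 bp), MIR30B (3636 bp) and C6orf106 (3477 bp). Their scores ran from 40.37 at ARHGEF7-AS1 to 221.95 at MIR30B. The ATL3 peak (chr11:63432234-63436460, score 123.45), in intron 1 of a gene for a protein that shapes the endoplasmic reticulum, lay 4855 bp downstream. NBPF1 belongs to a family of near-identical copies, so its reads may come from more than 1 copy.

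Only 57 of the 1575 peaks were annotated as promoter-TSS (50) or 5' UTR (7). The promoter-TSS class covers a set stretch that lies mostly before the TSS, so 46 of its 50 peaks were upstream and all 46 upstream peaks at 0 to 1 kb carried it. Their scores had a median of 41.035 and ran from 33.32 to 130.02, and 26 of 50 (52.0%, 38.5 to 65.2%) were above the list median. Only 6 of the 50 belonged to a first start outside other protein-coding genes, and 24 to an inner start. Another 17 belonged to a TSS inside another gene, whether first or not, and 3 could not be placed. Of the 50 peaks, 3 had a TSS with CpG-rich flanks, those of TMEM106A, NCOA4 and CHD1L, and the flanks of the 3 that could not be placed were not assessed. Protein-coding genes named 33 of the 50 peaks and microRNAs 8, and 13 of the 50 peaks spanned the TSS.

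DYRK1A, a kinase gene of chromosome 21, had the promoter peak with the highest score. Its peak of score 130.02 (chr21:38791941-38793453, 1513 bp wide) was centred 95 bp downstream of an inner start, and a second of score 56.03 (chr21:38790823-38791582) was centred 5 bp upstream of a neighbouring inner start, the closest of all upstream peaks. MIR32 followed with 100.86 (chr9:111808815-111810210, 934 bp upstream, inside TMEM245), then MIR103A2 with 78.96 (chr20:3897136-3897925, 611 bp upstream, inside PANK2), TMEM68 with 75.01 (364 bp upstream) and ERVFRD-1 with 73.92 (899 bp upstream, inside SMIM13). These stand well above the median of 41.035. The other promoter peaks named for protein-coding genes scored below 60, among them UBE3A (56.66), the ubiquitin ligase of Angelman syndrome, ADNP (52.72), a neuroprotective homeobox factor, CBX5 (48.39), which encodes the heterochromatin protein HP1 alpha, PFKM (44.72), the muscle phosphofructokinase, and ACSL1, an acyl-CoA synthetase with peaks of 38.78 and 35.61.

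The remaining promoter-TSS peaks were named for RNF19A, GOLGA6L9, APP, EVI2A, EVI2B, LRRC8B, AK3, MFF, TAS2R5, TMEM106A, SPAG9, ATPAF1, GPR21, OAZ3, SYTL2, STPG4, ARHGAP35, CNOT10, VN1R1, NCOA4, CHD1L and CCL21, for the non-coding RNAs FKSG29, SMAD5-AS1, LOC100506551, MIR4637, SNORA58, MIR125B2, ACTA2-AS1, MIR626, MIR1178, MIR320B2, LOC101927557 and MIR634, and for the pseudogenes DPRXP4 and ARGFXP2, and 1 had no gene name. The first starts among them included TAS2R5 (score 40.01), a bitter taste receptor, VN1R1 (34.99), a vomeronasal receptor, and CCL21 (34.68), a chemokine. The VN1R1 peak, centred 10 bp downstream, was the closest to a TSS on that side, followed by RNF19A at 78 bp and DYRK1A at 95 bp. On the upstream side DYRK1A at 5 bp was followed by MIR320B2 at 27 bp and SNORA58 at 28 bp.

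The 7 peaks in a 5' UTR were at DEDD (42.14), GPR21 (39.18), ZDHHC5 (38.98), ZFAND6 (36.73), PTPN3 (35.23), HPS5 (34.32) and ZBTB24 (33.02). All 7 were downstream, from ZFAND6, whose peak spanned the TSS, to ZDHHC5 at 4870 bp, and 1 of the 7 was above the list median. DEDD is a death-effector-domain gene, ZDHHC5 a palmitoyltransferase and PTPN3 a tyrosine phosphatase. Their scores lay between 33.02 and 42.14.

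**Figure D4:**
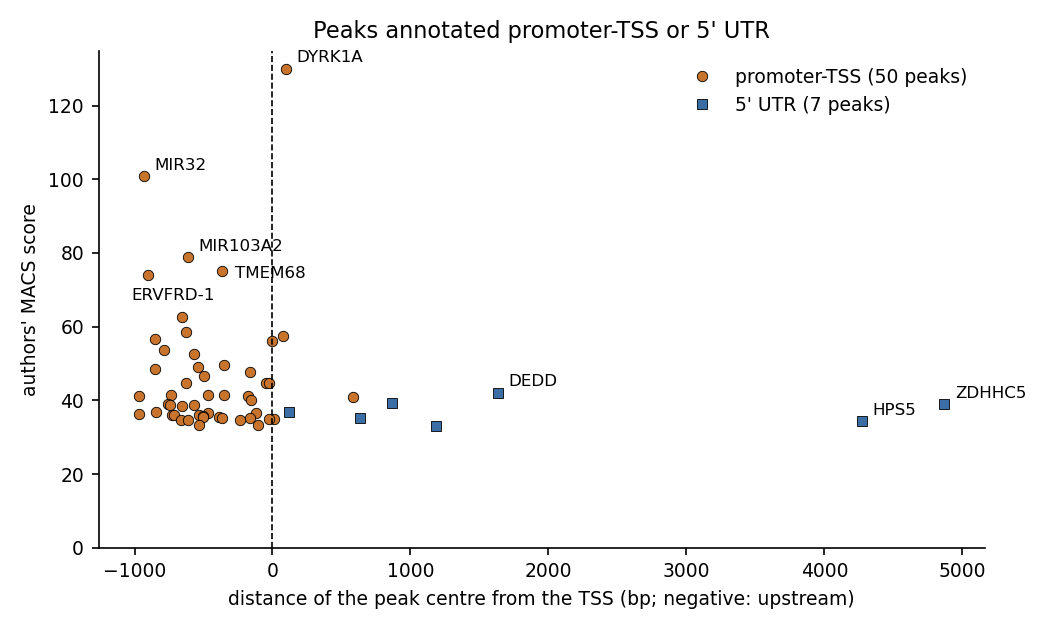
Score of the 50 promoter-TSS peaks (orange circles) and 7 5' UTR peaks (blue squares) against the distance of the peak centre from the TSS (horizontal axis, bp, negative upstream, dashed line at the TSS). The promoter-TSS peaks lie from 968 bp upstream to 581 bp downstream, DYRK1A leads with 130.02, and the 5' UTR peaks stay at or below 42.14.

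The ETS core was sought in these 57 peaks because they carry the promoter-TSS or 5' UTR annotation. The core used was CCGGAAGT on either strand, with GGAA fixed and at most 1 mismatch in the other 4 letters. It occurred in 5 of the 57 peaks, 6 times in all and once without mismatch. Over whole peaks it occurred in 7.13% (5.96 to 8.51%) of those within 5 kb and 6.33% (5.97 to 6.72%) of those beyond, and the difference of 5 of 57 from these shares was not tested. Each match is printed with its hg19 position, on the strand that reads GGAA, with the 8 letters of the core in capitals.

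EVI2B, chr17:29641153-29641182, plus strand, 0 mismatches: aatagctggttCCGGAAGTgcaataaacca
ERVFRD-1, chr6:11112238-11112267, plus strand, 1 mismatch: ggagatcttatCAGGAAGTtgctgatcacc
ERVFRD-1, chr6:11112258-11112287, minus strand, 1 mismatch: gacaggaaacaCCGGAAGCtggtgatcagc
FKSG29, chr13:100002765-100002794, minus strand, 1 mismatch: cattcagcaatCTGGAAGTtctctaaaccc
TMEM106A, chr17:41363300-41363329, minus strand, 1 mismatch: ttcttccttttCTGGAAGTcattttcatgg
GPR21, chr9:125795154-125795183, minus strand, 1 mismatch: catggatattaCAGGAAGTttcatggtaca

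The full core at EVI2B, a gene inside NF1, lay 127 bp from the centre of a peak with a score of 47.58. The GPR21 match lay 41 bp from the peak centre, and the ERVFRD-1 matches 721 and 701 bp from it. DYRK1A, with the strongest promoter peak, had no match to this core. Of the 5 genes that lead the promoter peaks by score, ERVFRD-1 alone had a match.

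Over all members, the sequence at the peak centres had motif shares whose intervals overlapped those of the peaks beyond 5 kb. In the window of 100 bases to each side of the centre, GGAA occurred in 1312 of 1571 windows (83.5%, 81.6 to 85.3%), against 83.8% (83.3 to 84.4%) of 16466 windows beyond 5 kb. The ETS core with at most 1 mismatch occurred in 2.42% (1.77 to 3.30%) and 2.64% (2.41 to 2.90%). The core without mismatch occurred in 0 of 1571 windows, which allows up to 0.244%. The tandem GGAAGGAA was found in 1.15% (0.726 to 1.80%) and 1.62% (1.44 to 1.83%). AGAACA, which is only a part of the androgen receptor motif, was in 16.2% (14.4 to 18.1%) and 17.1% (16.5 to 17.6%). The forkhead motif TGTTTAC was in 3.44% (2.64 to 4.46%) and 3.72% (3.44 to 4.02%), and the AP-1 motif TGANTCA in 6.37% (5.26 to 7.68%) and 6.41% (6.04 to 6.79%). The same held for promoter elements: the GC box GGGCGG was in 1.21% (0.776 to 1.88%) of the windows within and 1.26% (1.10 to 1.45%) of those beyond 5 kb, the CCAAT box in 27.0% (24.9 to 29.2%) and 26.8% (26.1 to 27.5%), and the TATA box TATAAA in 24.1% (22.01 to 26.2%) and 23.4% (22.7 to 24.0%). Both strands were searched, and GGAAGGAA and the ETS core overlap GGAA. Upstream and downstream shares overlapped in their intervals for GGAA (82.4%, 78.7 to 85.6%, and 84.0%, 81.7 to 86.0%) and for the ETS core (2.33%, 1.31 to 4.12%, and 2.46%, 1.69 to 3.55%).

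MicroRNA genes, which encode short RNAs that repress messenger RNAs, named 103 peaks within 5 kb, at 65 genes, with 48 peaks upstream and 55 downstream. Of the 103 peaks, 60 belonged to a TSS inside another protein-coding gene, against 292 of all 1575 peaks within 5 kb (18.5%) and 13.4% beyond. Of the 249 microRNA genes named anywhere in the list, 26.1% had a peak within 5 kb, near the 23.1% (1156 of 5011) over all genes. Among the 41 peaks at 0 to 1 kb downstream, 15 were labelled TTS, and 14 of these were at microRNAs. Non-coding RNAs in all named 225 of the 1575 peaks, with shares of 25% (21.3 to 29.1%) upstream, 9.70% (8.09 to 11.6%) downstream, 34.5% (25.3 to 44.9%) at 0 to 1 kb and 12.0% (11.5 to 12.5%) beyond 5 kb. The mature sequences of the 3 best-known microRNAs with a promoter-TSS peak, chosen after their values were seen, are given from RefSeq (GRCh38.p14 table) with the seed, bases 2 to 8, in capitals.

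hsa-miR-32-5p: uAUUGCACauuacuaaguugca
hsa-miR-103a-3p: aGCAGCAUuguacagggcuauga
hsa-miR-125b-5p: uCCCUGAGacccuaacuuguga

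Their 3 seeds differ. The peak at MIR32 scored 100.86, that at MIR103A2 78.96 and that at MIR125B2 41.55, so that the first 2 stood above and the third near the list median of 40.865. The MIR125B2 peak was 466 bp upstream.

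The 1575 peaks named 1156 genes, 23.1% of the 5011 genes of the list, and 4 peaks had no gene name. Of these genes 891 had 1 such peak, 176 had 2 and 89 had 3 or more. Peaks lay only downstream at 784 genes, only upstream at 274 and on both sides at 98. A total of 372 genes had all their peaks within 5 kb. The members were thus spread over many genes with 1 peak each.

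DYRK1A had the most, with 9 peaks within 5 kb of 3 starts, 4 upstream and 5 downstream, out of 65 at any distance. From upstream to downstream around its inner starts, the scores were 46.73, 45.99, 39.18, 56.03, 130.02, 79.67, 82.95 and 109.51, and a peak near an earlier start had 75.95. The scores were thus higher after the starts than before them, where all stayed under 60. ADAR had 8 peaks, with scores of 43.23, 42.02 and 34.79 upstream and 129.69, 46.15, 69.88, 43.29 and 54.01 downstream. All 8 were annotated in intron 1 of ADAR, and the ADAR peak at 1576 bp was the only one above 100.

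PTPN3 had 7 peaks with scores between 33.34 and 66.23, and SYTL2, which encodes a Rab-binding synaptotagmin-like protein, had 7 between 35.69 and 52.4. ANKRD17 had 6, of 188.69, 108.07 and 63.49 downstream and 49.41, 40.57 and 39.04 upstream. ARHGAP35, which encodes a GTPase-activating protein, had 6 peaks that were all upstream of an inner start, from 365 to 4560 bp, and scores between 35.25 and 59.22. APP, which encodes the amyloid precursor protein, had 5 peaks around an inner start in intron 1, with 35.69, 36.77 and 49.48 upstream and 60.57 and 52.39 downstream. LRRC37A4P, LRRC37B, MIR378J and RCHY1 also had 5 each, and the LRRC37 genes are near-identical copies whose reads may be shared. Among genes with peaks on both sides, the highest scores were at MIR30B (221.95), ANKRD17 (188.69), PDE4D (136.02), a cyclic AMP phosphodiesterase gene, DYRK1A (130.02) and ADAR (129.69).

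EVI2A and EVI2B, nested on the opposite strand of NF1, the gene of the RAS inhibitor neurofibromin, had 5 peaks each. Their 10 peaks scored between 33.03 and 122.28, with the highest in EVI2B 3835 bp downstream of its TSS (chr17:29636624-29637967). NF1 held the TSS of 13 peaks within 5 kb, the most for any host gene, and the 10 peaks of EVI2A and EVI2B were among them.

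A set of 14 genes was chosen from among those the study names, without EED, SUZ12 and others. EED had a peak 3805 bp downstream (score 83.44), so the count within 5 kb depends on that choice. Of the 14 genes, 7 were named by a peak and 0 by a peak within 5 kb. Over all genes 23.1% had a near peak, from which 0 of 7 cannot be told apart. Among these genes, the closest peaks were 7454 bp downstream at CTNNA1, which encodes alpha-catenin (score 86.55), 6379 bp upstream at DAAM1, a formin gene (35.18), 12975 bp downstream at ERG itself (35.89), 19252 bp downstream at ARID2 (51.84), 23432 bp downstream at EZH2 (45) and 33465 bp upstream at TMPRSS2 (55.29). Of 28 ETS factor genes, 7 were named by a peak and 0 within 5 kb, again too few to set apart from 23.1%. GABPA, at 5584 bp upstream, was the closest (39.2).

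Of 27 Polycomb subunit genes, 12 were named by a peak and 4 of the 12 (33.3%) by a peak within 5 kb, against 23.1% of all genes. The 4 were AEBP2 (61.87 and 35.21), EED (83.44), EZH1 (38.57) and RBBP7 (33.14). EED, the subunit that binds methylated histone H3, had its peak 3805 bp downstream of the TSS, and AEBP2, a PRC2 accessory subunit, at 2217 and 3899 bp. All 5 peaks were downstream and intronic, and 2 of the 5 scored above 60.

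Of 15 genes for the androgen receptor, its cofactors and lineage factors, 8 were named by a peak and 3 by a peak within 5 kb. NCOA2, a steroid receptor coactivator, had the strongest (113.61, 3814 bp downstream), followed by NCOR1, a corepressor (64.81, 3096 bp downstream), and GRHL2, an epithelial transcription factor (33.64, 4545 bp upstream). Of 27 androgen-driven genes, 11 were named by a peak, but only MPHOSPH9 within 5 kb (36.67, 2329 bp downstream), and ELL2, an elongation factor gene, came next at 5736 bp (53.01). Of 22 SWI/SNF subunit genes, 4 were named and 0 within 5 kb. Of 15 housekeeping genes, 4 were named and 1 within 5 kb, YWHAZ (42.45, 2108 bp upstream). With 0 to 4 genes per list, the shares are too small to set apart from the 23.1% over all genes.

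By chromosome, most members lay on chromosome 8, with 126 of 1575 (8.00%, 6.76 to 9.44%), against 8.91% (8.48 to 9.35%) of the peaks beyond 5 kb. Chromosome 12 (7.68%) and chromosome 17 (7.56%) followed. In the whole list, chromosomes 3, 7 and 8 held the most peaks. These shares were not set against chromosome length, gene number or copy number.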

How the data were processed

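ChIP-seq of VCaP cells gave 1 anti-mERG library and 1 control library, sequenced as single-end reads of 75 nt from fragments of about 200 bp. The submitters' processing notes name Bowtie2, Picard, HOMER and hg19. The header and peak names of the list point to MACS, whose version and settings are not given in the sources used here. The authors deposited a score per peak (read as -10 times log10 of the MACS p-value) and the position and distance to the nearest RefSeq TSS in bp, measured from the peak centre. The score is not normalized to depth, and read depth per sample is unknown.

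Peaks with an absolute distance of at most 5000 bp were taken. Members and gene lists were chosen with earlier results of these data known. Fisher's exact test, two-sided, was applied to shares above the list median (Benjamini-Hochberg over 4 tests, threshold 0.05). It treats peaks as independent although they share 1 library. The test was run before adjustment on simulated independent peaks in groups of 472 and 1103. It called 7 of 200 simulations with no difference and 189 of 200 with a difference of 10 points. Such simulations cannot show how the test behaves on peaks that share genes and 1 library. Motif windows took 100 bases of GRCh37 to each side of the peak centre, and 4 peaks on other contigs were left out. Strand was found for 96.7% of the members, and 56.4% of their TSS lay within 10 bp of a GENCODE start (release 44 on GRCh37). The kind of TSS, CpG-rich flanks, densities per Mb and scores by class were added after seeing the data. Named were the genes of all promoter-TSS and 5' UTR peaks, the 5 highest scores per side, the highest per step, the 3 closest per side, the 5 widest, genes with most peaks or peaks on both sides, and listed genes, of which 1 is not reported here. Tests ran in SciPy 1.17.1 under Python 3.11.15, tables in pandas 2.3.3 with NumPy 2.4.6, and plots in Matplotlib 3.10.9.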

Additional observations from a re-analysis of the deposited data

How the results depend on the processing

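No paired analysis was possible because there was 1 ChIP library and 1 control, and no replicate could be left out. The lower share of upstream peaks above the list median kept its direction under all 7 alternatives, from -5.53 to -19.1 points. It lost its call at the 75th percentile (-5.53 points) and, as an alternative added after seeing the data, in introns only (-7.14 points). With 1 peak per gene, the difference in strong peaks between the members and the peaks beyond 5 kb turned to 5.07 points (Fisher's exact test, adjusted p = 0.00272), and that in wide peaks grew to 12.8 points (adjusted p = 7.23e-15). Without peaks over 5 kb wide and the top 1% of scores the first was 0.0979 points. Scores above the list median left 787 peaks within 5 kb, 74.0% of them downstream, 83.6% in introns and 27 annotated promoter-TSS or 5' UTR. With protein-coding genes only, 75.0% were downstream and 83.8% in introns. With the nearest start of any GENCODE transcript, which counts many more starts, 7443 peaks lay within 5 kb, 52.4% of them downstream and 87.5% in introns. The ETS core was in 7.13% of whole peaks and, without mismatch, in 0 windows, and GGAA was in 60.6% of the shorter windows, 50 bases to each side of the centre. The other 31 values kept their direction and side of the threshold or moved by less than counting error or 1.5 times. The cause was not tested. Without summits and depth, motif positions and weak peaks are uncertain.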
